A study of Apostichopus japonicus with 12 samples.

Results

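The subject here is a set of 114 of 59494 transcribed features that were less abundant in low oxygen than in the remaining libraries, with and without heat stress. The tissue was the respiratory tree of Apostichopus japonicus, a sea cucumber, and its RNA was sequenced after ribosomal RNA had been removed. The 12 libraries form 4 groups of 3. The combined group was held at 26 °C and 2 mg/L oxygen, the hypoxic group at 2 mg/L, the thermal group at 26 °C, and the control group had neither stress. The labels leave unstated how warm and how oxygenated the control water was, how warm the hypoxic water was and how oxygenated the thermal water was. Strain, sex and age are not named either. Nothing says whether the replicates of a group come from different animals, and p-values cover the spread between libraries alone. Members were chosen by a rule on the deposited abundances themselves, y = log2(FPKM + 0.5), where FPKM is a feature's reads scaled by its length and by the reads of the library. The highest of the 6 hypoxic and combined values had to lie under the lowest of the 6 control and thermal values. In addition the hypoxic and combined group means of y had to lie at least 1 below the control mean, the thermal mean within 1 of it, and the highest group mean at 2 FPKM or more. That members were lower in low oxygen is therefore how they were found. Those differences are described below, and nothing is read from tests of them.

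The respiratory trees are branched, thin-walled sacs that open into the cloaca. A sea cucumber pumps sea water in and out of them through the anus, takes up part of its oxygen there and also sheds ammonia and clears particles from the body cavity. In animals in general, cells sense oxygen through prolyl hydroxylases, which mark the alpha subunit of the transcription factor HIF for breakdown while oxygen is present. When oxygen runs short, glycolytic genes are commonly induced and costly processes such as growth, division and protein synthesis are commonly slowed. Which of these processes the members belong to is not known here, because 0 of the identifiers in the table matched the RefSeq gene table used. For the same reason the tissue label could not be set against marker genes, and members are given by identifier. In bulk tissue, fewer cells of a type and less RNA per cell cannot be told apart.

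The members comprised 83 AJAP features and 31 MSTRG features. Feature lengths could be recovered from the values. AJAP lengths were multiples of 3 at 93.2% of the AJAP features with reads in 4 or more libraries, against 33.4% for MSTRG features. Most AJAP lengths may thus be coding lengths without untranslated ends, which no annotation was at hand to check. Library totals recovered in the same way, those by which FPKM was scaled, ran from 20387909 to 28428042 reads. Reads over the features made up 99.98% to 99.99% of these totals, which may be fewer than the reads sequenced. Of the members, 105 had reads in all 12 libraries, and the remainder in at least 10. The least covered library of a member held a median of 38 reads, and at 29 members it held fewer than 10. The values of those members carry the largest counting errors.

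Just inside the separation limit lay AJAP12602, with a highest low-oxygen value of 6.38 FPKM and a lowest remaining value of 6.39 FPKM. Just outside was AJAP27649, with 0 reads in all 6 low-oxygen libraries and in at least 1 of the other libraries. The hypoxic limit lay between AJAP06757, a member with a hypoxic-minus-control difference of -1.0008 on the log2 scale, and AJAP28924 with -0.98. AJAP11695 was the member nearest to the combined limit, with -1.04 for combined minus control, and AJAP20773 missed it with -0.9996. On the thermal limit AJAP00221 stood inside with a thermal-minus-control difference of -0.96 and MSTRG.126556 outside with -1.01. The lowest top group mean of a member was 2.30 FPKM, in AJAP10327, and MSTRG.81683 missed with 1.98 FPKM. Separation was the limit that decided most: 811 features met every other condition and failed only there, while 22, 25, 10 and 11 features failed only at the hypoxic, combined, thermal and level limits.

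Across the 114 members the median of the group mean was 2.76 FPKM in the combined group and 2.90 FPKM in the hypoxic group, against 9.33 FPKM in the thermal group and 10.5 FPKM in the control group. Averaged over temperature, the low-oxygen difference had a median of -1.49 on the log2 scale, with the middle 50% of members between -1.88 and -1.21 and extremes of -4.37 and -0.74. The median over all 46763 features tested (at least 0.5 FPKM in 3 libraries) was -0.08. Together the members took 0.141%, 0.109% and 0.121% of the summed FPKM in the combined libraries and 0.107%, 0.106% and 0.135% in the hypoxic libraries, against 0.322%, 0.245% and 0.430% in the thermal libraries and 0.417%, 0.362% and 0.331% in the control libraries. All 6 low-oxygen shares lay under all 6 others, as the rule requires of each member singly. The rule contains no test. In limma's moderated test of low oxygen averaged over temperature, with Benjamini-Hochberg adjustment over all features, 66 members passed an adjusted p of 0.05, where 0.389% of all features tested were called lower. Over all features tested, 0.616% had all 6 low-oxygen libraries under the other 6, the separation that the rule asks for. Voom, limma's test on recovered reads, called 43 members, where 0.24% of all were called lower. The rule used that contrast, so nothing is read from these counts. Without single libraries the 66 became 17 to 72. It was 17 without combined replicate 2, 39 without combined 3, and 29 and 24 without hypoxic 1 and 2. Without thermal 1 and also without thermal 3 it was 27, without control 1 it was 26 and without control 2 it was 41. The remaining libraries are not listed, and nothing is read from these counts either.

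**Figure D1:**
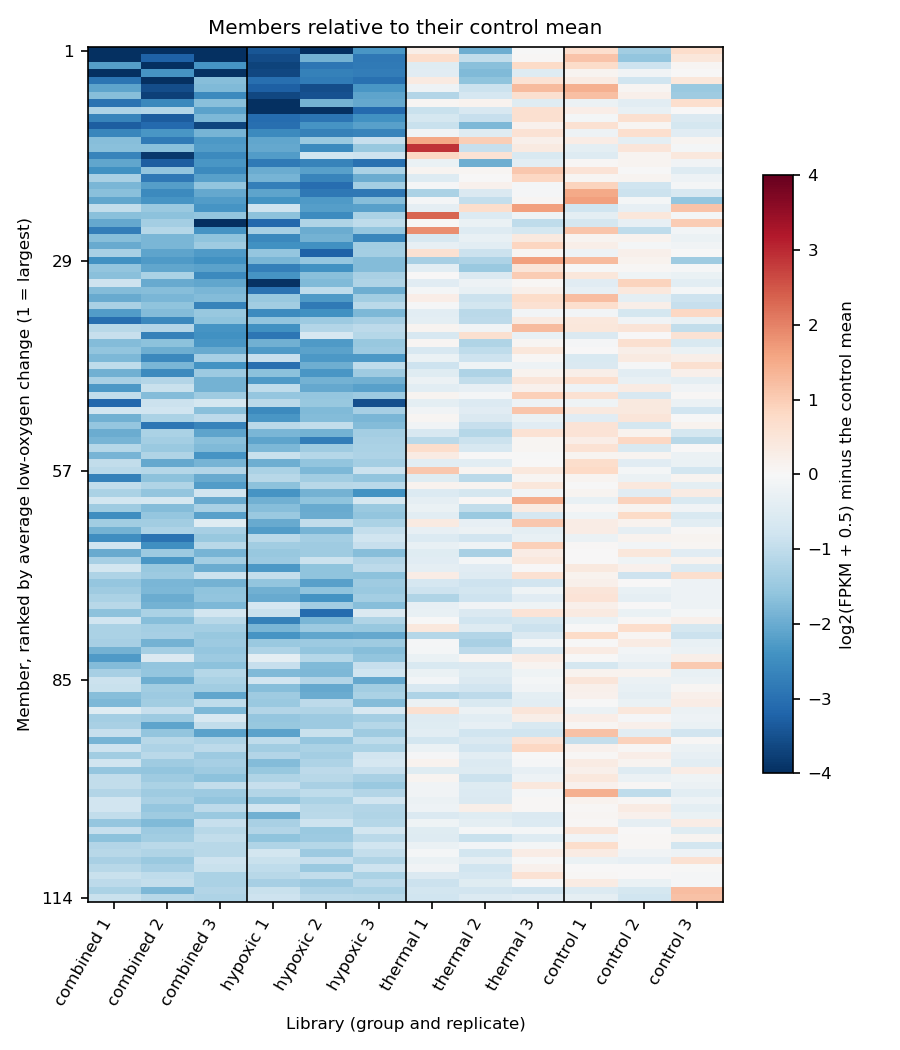
Each row is 1 of the 114 members and each column 1 of the 12 libraries, coloured by log2(FPKM + 0.5) minus the member's control mean, with members ranked by their average low-oxygen difference (-4.37 at rank 1, -0.74 at rank 114). The combined and hypoxic columns are blue throughout, as the rule requires, while within the thermal columns replicate 2 is mostly pale blue and replicate 3 is on both sides of the control mean.

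The members spanned 2 orders of abundance. Averaged over the thermal and control libraries, 5 members exceeded 100 FPKM, 53 lay between 10 and 100 FPKM and 56 lay under 10 FPKM. The 5 most abundant carried 40.9% of the members' summed FPKM in low oxygen and 35.0% in the remaining libraries. AJAP06221 was the most abundant, with 124, 102 and 123 FPKM in the combined libraries and 128, 98.2 and 86.7 FPKM in the hypoxic libraries, against 221, 171 and 329 FPKM in the thermal libraries and 275, 255 and 208 FPKM in the control libraries. Its low-oxygen libraries were tightly grouped, and its level there was less than a factor of 3 below the rest, a modest difference of -1.12 on the log2 scale. AJAP25716 had 126, 39.1 and 102 FPKM in the combined libraries and 82.9, 81.1 and 114 FPKM in the hypoxic libraries, against 179, 192 and 422 FPKM in the thermal libraries and 225, 199.6 and 229 FPKM in the control libraries. Thermal replicate 3 stood far above the others of its group, and combined replicate 2 stood below its own.

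AJAP19894, AJAP06136 and AJAP06932 completed the members above 100 FPKM. AJAP19894 had 135, 78.8 and 55.9 FPKM in the combined libraries and 45.5, 72.9 and 109.7 FPKM in the hypoxic libraries, against 176, 163 and 227 FPKM in the thermal libraries and 297, 251 and 152 FPKM in the control libraries. In this member the highest low-oxygen library, combined replicate 1, came close to the lowest control library. AJAP06136 averaged 47.8 ± 17.5 FPKM in the combined group and 53.4 ± 15.8 FPKM in the hypoxic group, against 135 ± 61.7 FPKM in the thermal group and 185 ± 43.5 FPKM in the control group (SD, n = 3 each). AJAP06932 had a middle level in the thermal group, with averages of 62.5 ± 15.3 and 51.6 ± 19.5 FPKM in the combined and hypoxic groups, 108 ± 27.5 FPKM in the thermal group and 195 ± 70.6 FPKM in the control group. Its thermal libraries all lay under its control libraries.

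Below 100 FPKM, AJAP17249 and AJAP26738 had thermal libraries that overlapped with their control libraries. AJAP17249 had 25.0, 39.1 and 17.5 FPKM in the combined libraries and 48.8, 41.4 and 38.2 FPKM in the hypoxic libraries, against 114, 91.3 and 89.4 FPKM in the thermal libraries and 98.6, 98.4 and 77.4 FPKM in the control libraries. The low-oxygen libraries ended at 48.8 FPKM and the others began at 77.4 FPKM. AJAP26738 had 29.6, 21.2 and 20.2 FPKM in the combined libraries and 13.0, 16.3 and 26.6 FPKM in the hypoxic libraries, against 67.8, 32.0 and 127 FPKM in the thermal libraries and 90.1, 92.7 and 87.8 FPKM in the control libraries. Its control libraries were nearly constant and its thermal libraries were not. Thermal replicate 2 was only slightly above the highest low-oxygen library.

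**Figure D2:**
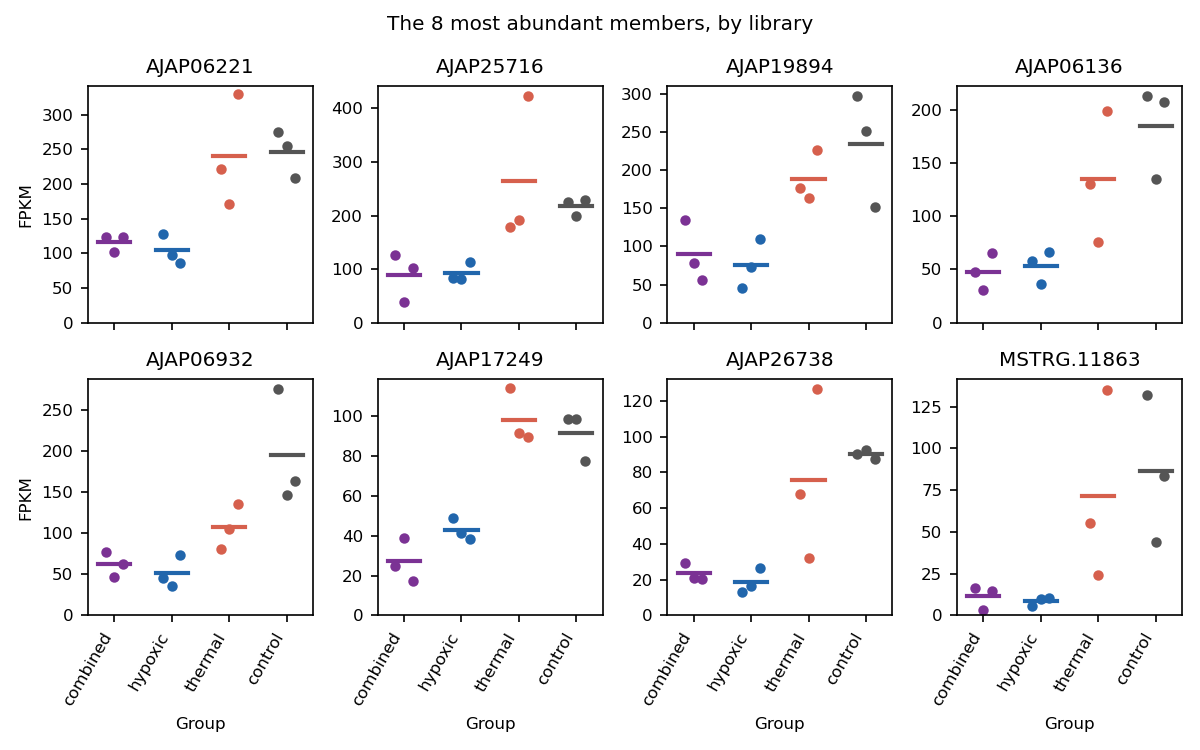
FPKM (linear axis from 0) of the 8 members with the highest mean over the thermal and control libraries, with 1 point per library and a bar at each group mean (n = 3). In each panel the combined and hypoxic points lie below the thermal and control points, and the thermal spread is wide in AJAP25716, AJAP26738 and MSTRG.11863.

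AJAP07200 had the largest average low-oxygen difference, -4.37 on the log2 scale. It had 0.572, 0.624 and 1.82 FPKM in the combined libraries and 5.60, 0.862 and 12.5 FPKM in the hypoxic libraries, against 75.9, 16.3 and 64.8 FPKM in the thermal libraries and 103, 24.6 and 107 FPKM in the control libraries. The combined libraries rested on 7, 8 and 23 reads. Replicate 2 was the lowest library of the hypoxic, the thermal and the control group alike, so that the lowest thermal library, at 16.3 FPKM, approached the highest hypoxic one, at 12.5 FPKM. Within groups this member had the largest spread of all members, an SD of 1.22 on the log2 scale. MSTRG.128783 followed with -3.61, and had 0 reads in combined replicates 1 and 3 and 12 reads in replicate 2. Its values were 0, 1.40 and 0 FPKM in the combined libraries and 1.02, 4.42 and 2.00 FPKM in the hypoxic libraries, against 28.9, 8.53 and 18.3 FPKM in the thermal libraries and 38.9, 5.56 and 24.1 FPKM in the control libraries.

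MSTRG.11863, AJAP03729 and AJAP29619 came next, with differences of -2.85, -2.82 and -2.80. MSTRG.11863 is the shortest member, at 236 bases, and the only MSTRG feature among the 8 most abundant. It had 16.5, 3.08 and 14.8 FPKM in the combined libraries and 5.60, 10.1 and 10.6 FPKM in the hypoxic libraries, against 55.6, 24.1 and 135 FPKM in the thermal libraries and 132, 44.1 and 83.3 FPKM in the control libraries. The groups are separated but the thermal and control libraries spread over more than a factor of 5. AJAP03729 had 0.0427, 1.47 and 0.165 FPKM in the combined libraries and 0.317, 1.05 and 1.01 FPKM in the hypoxic libraries, against 7.02, 2.50 and 6.68 FPKM in the thermal libraries and 10.5, 8.81 and 9.82 FPKM in the control libraries. It was steady in the control libraries, uneven in the combined ones and lower in thermal replicate 2 than in the other thermal libraries. AJAP29619 averaged 1.10 ± 1.21 FPKM in the combined group and 0.757 ± 0.105 FPKM in the hypoxic group, against 9.45 ± 5.97 FPKM in the thermal group and 9.80 ± 4.17 FPKM in the control group.

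AJAP26785 and AJAP28145 reached -2.79 and -2.67, with control values that themselves differed widely. AJAP26785 had 8.10, 2.69 and 10.6 FPKM in the combined libraries and 3.43, 2.68 and 6.99 FPKM in the hypoxic libraries, against 32.0, 20.1 and 90.1 FPKM in the thermal libraries and 99.7, 38.9 and 12.7 FPKM in the control libraries. AJAP28145 had 2.88, 0.328 and 1.39 FPKM in the combined libraries and 0.381, 0.483 and 2.06 FPKM in the hypoxic libraries, against 4.37, 6.46 and 16.8 FPKM in the thermal libraries and 24.9, 12.2 and 3.66 FPKM in the control libraries. In both members control replicate 1 was the highest control library and control replicate 3 the lowest. Of all members, 22 had an average difference of -2 or beyond, 13 AJAP and 9 MSTRG features, and 2 were at -3 or beyond.

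A wide difference was not the same as a wide separation. The gap between the highest low-oxygen library and the lowest of the others had a median of 0.23 on the log2 scale and a maximum of 1.37, in AJAP13031. That member had 4.05, 5.12 and 7.14 FPKM in the combined libraries and 4.26, 3.79 and 4.03 FPKM in the hypoxic libraries, against 25.0, 19.3 and 41.0 FPKM in the thermal libraries and 23.7, 44.0 and 19.9 FPKM in the control libraries. Its low-oxygen libraries stayed between 3.79 and 7.14 FPKM, and its other libraries began at 19.3 FPKM. MSTRG.49593 was next with a gap of 1.19. It had 1.04, 1.52 and 3.26 FPKM in the combined libraries and 0.0166, 2.75 and 2.40 FPKM in the hypoxic libraries, against 12.2, 12.6 and 8.10 FPKM in the thermal libraries and 9.57, 8.41 and 18.6 FPKM in the control libraries. The value of hypoxic replicate 1 was a single read, far below the other hypoxic libraries.

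AJAP14831, MSTRG.56747 and MSTRG.24151 had gaps of 0.99, 0.99 and 0.86. AJAP14831 averaged 1.53 ± 0.438 FPKM in the combined group and 1.20 ± 0.750 FPKM in the hypoxic group, against 7.07 ± 4.02 FPKM in the thermal group and 6.32 ± 0.945 FPKM in the control group. MSTRG.56747 had 2.35, 2.11 and 2.50 FPKM in the combined libraries and 1.04, 1.98 and 1.02 FPKM in the hypoxic libraries, against 5.45, 6.97 and 11.5 FPKM in the thermal libraries and 9.36, 9.73 and 7.26 FPKM in the control libraries. All groups were compact here, and thermal replicate 3 was the highest library. MSTRG.24151 had between 1 and 33 reads in the low-oxygen libraries and between 83 and 250 reads in the others. The member with the next identifier after MSTRG.56747, MSTRG.56748, was singled out after its values were seen. It had 0.502, 1.30 and 0.416 FPKM in the combined libraries and 0.864, 0.693 and 1.76 FPKM in the hypoxic libraries, against 5.36, 5.23 and 11.0 FPKM in the thermal libraries and 7.39, 4.81 and 3.24 FPKM in the control libraries. These were the only members with consecutive numbers, and whether the features adjoin in the genome was not examined.

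The steadiest members showed small differences. AJAP28675, AJAP22513, AJAP18267 and AJAP08649 had within-group SDs between 0.24 and 0.28 on the log2 scale, against a median of 0.53 over the members and 0.57 over tested features with a group mean of at least 2 FPKM. The separation limit favours small spreads, and the members' median highest group mean was 10.9 FPKM, beside 7.83 FPKM in that set. What lowers the median spread was not tested, and nothing is read from it. AJAP28675 had 8.05, 6.64 and 6.32 FPKM in the combined libraries and 7.94, 5.13 and 8.97 FPKM in the hypoxic libraries, against 15.5, 13.6 and 14.5 FPKM in the thermal libraries and 28.7, 24.8 and 21.2 FPKM in the control libraries. Its thermal libraries formed a middle level between the low-oxygen and the control libraries. AJAP22513 had the same 3 levels, at 8.05 ± 1.96 and 7.77 ± 1.60 FPKM in the combined and hypoxic groups, 13.2 ± 1.88 FPKM in the thermal group and 20.7 ± 1.83 FPKM in the control group. In AJAP18267 the thermal and control libraries overlapped, at 22.6, 17.5 and 23.4 FPKM in the thermal and 24.4, 28.3 and 18.6 FPKM in the control libraries. At the unsteady end, MSTRG.63101 ranged from 0.109 to 4.43 FPKM in the combined libraries, and AJAP13959 had 1 read in the 3 combined libraries together. AJAP13959 had 0.258, 0.428 and 0.316 FPKM in the hypoxic libraries, against 0.566, 0.649 and 8.00 FPKM in the thermal libraries and 6.04, 2.51 and 0.503 FPKM in the control libraries, so 1 control library and 2 thermal libraries lay near the low-oxygen level.

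The members were lower in low oxygen both with and without heat, and the median difference was smaller with heat. In warm water, combined minus thermal, the median over members was -1.37, with the middle 50% between -1.88 and -1.03. Without heat, hypoxic minus control, it was -1.63, with the middle 50% between -2.02 and -1.28. As a share of the level without low oxygen, the combined mean was a median of 33.6% of the thermal mean, and the hypoxic mean a median of 28.0% of the control mean. The difference was smaller in warm water at 78 members and larger there at 36. The rule sets a minimum of 1 against the control mean and none against the thermal mean, and 25 members differed by less than 1 in warm water. That asymmetry favours larger differences without heat, so nothing is read from the balance of 78 and 36. AJAP00221 had the smallest difference in warm water, -0.41, with 1.83, 1.75 and 1.45 FPKM in the combined libraries and 2.04, 2.01 and 3.29 FPKM in the thermal libraries, while 0.586, 0.820 and 0.847 FPKM in the hypoxic libraries and 8.99, 5.46 and 2.62 FPKM in the control libraries gave -2.17. The reverse was seen in AJAP08440, which differed by -3.27 in warm water and -1.27 without heat. In AJAP20562 the difference was far larger without heat, with -1.22 in warm water and -3.90 without heat. Limma's test of the difference between these differences (the interaction) called 0 members and 0% of all features. At an unadjusted p under 0.05 it counted 7 members, or 6.14%, beside 7.67% of all features, and voom counted 8 members beside 7.21%. The rule constrains this contrast in part, so nothing is read from these counts either.

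**Figure D3:**
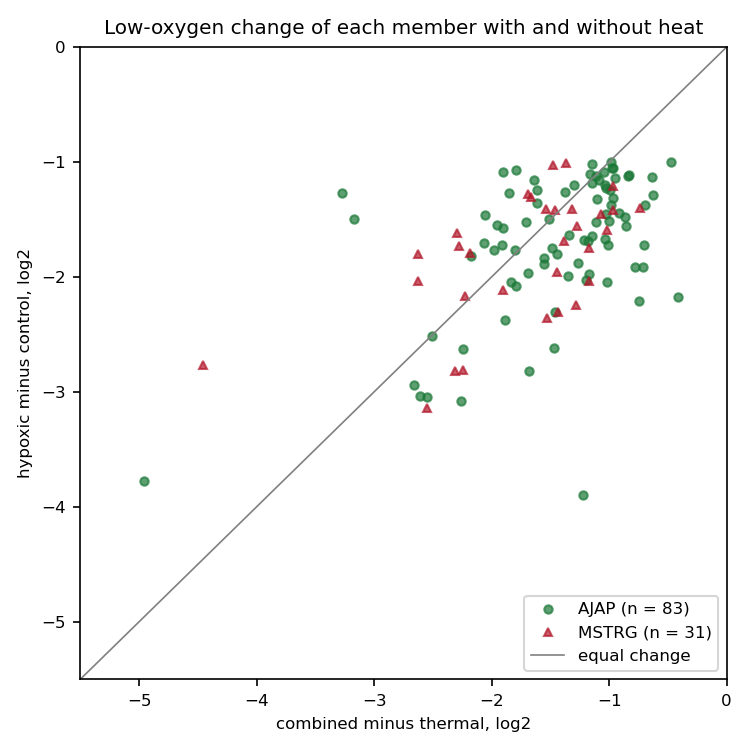
Each point is 1 member (circles AJAP, n = 83; triangles MSTRG, n = 31), with the low-oxygen difference in warm water (combined minus thermal, log2) on the x axis and without heat (hypoxic minus control, log2) on the y axis. Most points, 78 of 114, lie below the line of equal change, where the difference is larger without heat, and all y values are at -1 or below because the rule requires it.

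Heat alone was held near the control level by the rule, within 1 on the log2 scale. The thermal mean was under the control mean at 87 members and above it at 27, with a median of -0.26 and the middle 50% between -0.47 and -0.04. Over all features tested the median was 0.06. Under median-of-ratios scaling the thermal mean was lower at 93 members and under quantile scaling at 92. The rule asks for a distance of 1 from the control mean and for none from the thermal mean, which favours members with high control values, so nothing is read from this balance.

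Heat added to low oxygen, combined minus hypoxic, was fitted as well, a contrast the rule does not name. The rule does place both groups under a shared ceiling, which limits how far apart they can lie. Small differences and few calls among members can follow in part from that ceiling, so nothing is read from their shares beside all features. Combined minus hypoxic had a median of 0.02 over the members, 60 of them higher and 54 lower in the combined group, and a median of 0.05 over all features tested. The sign of the members' median was not stable: it was -0.03 with median-of-ratios scaling and -0.06 with quantile scaling. In 60 members (52.6%) the difference was under 0.25 in size and in 107 (93.9%) under 1. Among tested features with a group mean of at least 2 FPKM those shares were 31.6% and 83.0%. The typical standard error of a member's difference was 0.46.

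With limma, 0 members passed an adjusted p of 0.05 for heat added to low oxygen, where 0.0342% of all features did (10 higher and 6 lower, or 6 and 6 with median-of-ratios scaling). At an unadjusted p under 0.05 there were 8 members (7.02%), 2 higher and 6 lower, where 10.5% of all features were counted, 5.25% higher and 5.23% lower. Voom on recovered reads called 0 members, where it called 0.00214% of all features, and counted 6 members at an unadjusted p under 0.05, where it counted 10.1% of all. Among the 8 members whose combined libraries all exceeded all hypoxic ones (7.02%, beside 8.84% of all features), AJAP20562 showed the largest difference. It had 11.0, 11.5 and 5.63 FPKM in the combined libraries and 0.907, 0.861 and 2.62 FPKM in the hypoxic libraries, against 14.2, 16.8 and 41.6 FPKM in the thermal libraries and 32.1, 21.7 and 27.1 FPKM in the control libraries. The lowest combined library, at 5.63 FPKM, was well above the highest hypoxic one, at 2.62 FPKM. The group means differed by 2.38 on the log2 scale (SE 0.46, limma adjusted p = 0.0908, voom adjusted p = 0.275), which missed the threshold. Combined values of this member lay between its hypoxic values and its thermal and control values.

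The other members highest in the combined group relative to the hypoxic group were AJAP17648, AJAP00221 and AJAP24220. AJAP17648 had 3.80, 2.94 and 5.47 FPKM in the combined libraries and 1.51, 2.27 and 1.48 FPKM in the hypoxic libraries, a difference of 1.00 (SE 0.35, limma adjusted p = 0.330). Its libraries did not overlap between these groups, and the same held for AJAP00221, with a difference of 0.80 (limma adjusted p = 0.555). In AJAP24220 the groups overlapped, at 7.76, 7.60 and 3.90 FPKM in the combined libraries and 1.91, 3.66 and 5.14 FPKM in the hypoxic libraries, a difference of 0.79 (limma adjusted p = 0.607).

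In the opposite direction, 6 members (5.26%) had all combined libraries under all hypoxic ones, beside 8.12% of all features. AJAP08440 had 6.29, 2.43 and 6.78 FPKM in the combined libraries and 8.56, 24.4 and 23.4 FPKM in the hypoxic libraries, against 74.4, 62.3 and 27.2 FPKM in the thermal libraries and 29.3, 44.9 and 55.6 FPKM in the control libraries. It differed between the combined and hypoxic groups by -1.74 (SE 0.50, limma adjusted p = 0.241), which missed the threshold. MSTRG.128783 and AJAP07200, described above for their low levels, differed by -1.77 and -1.76 (limma adjusted p = 0.437 and 0.487). Their groups overlapped, and the combined values rested on few reads. AJAP28317, with 2, 0 and 9 reads in the combined libraries and 15, 12 and 20 in the hypoxic libraries, differed by -1.25 (limma adjusted p = 0.335).

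**Figure D4:**
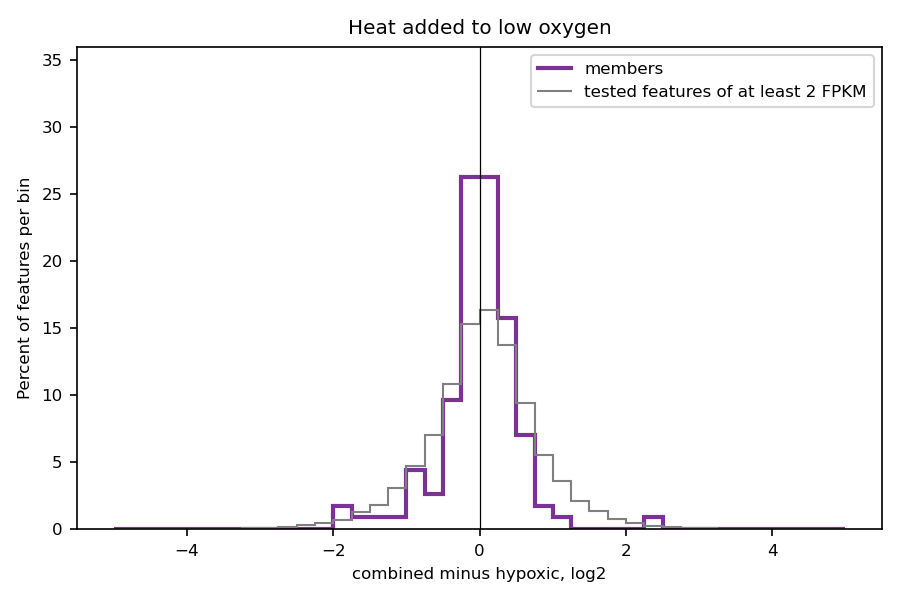
Distribution of the combined-minus-hypoxic difference (log2, bins of 0.25) over the 114 members and over the 32739 tested features with a group mean of at least 2 FPKM, each as a percent of its own set. Both are centred near 0 (medians 0.02 and 0.06). The members are the narrower set, which the rule's shared ceiling favours, and AJAP20562 is the only member above 2.

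Within groups, many members were high or low in the same libraries, most of all in the thermal group. Thermal replicate 2 was the lowest thermal library at 73 members (64.0%), beside 34.9% of all features tested, and thermal replicate 3 was the highest at 75 members (65.8%), beside 36.4%. The median deviation of a member from its thermal mean was -0.33 in replicate 2 and 0.37 in replicate 3, where all tested features had -0.02 and 0.03. Hypoxic replicate 3 was the highest hypoxic library at 64 members (56.1%), beside 43.3% of all features, with median deviations of 0.25 for the members and 0.10 for all. Control replicate 1 was the highest control library at 57 members (50.0%), beside 37.2%. In the combined group the medians stayed between -0.08 and 0.10. The rule uses the same values, and its separation limit bears on the lowest thermal and control and the highest low-oxygen libraries. How far that sets these counts was not tested, and members are not replicates of each other. Thermal replicate 2, with the lowest members' share among the thermal and control libraries (0.245%), was the library without low oxygen whose share was nearest to the low-oxygen groups. Without it the rule was met by 262 features, 112 of them members, against 114 with it. Other libraries that set the count were combined replicate 1, with 209 features without it, and hypoxic replicate 3, with 188.

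**Figure D5:**
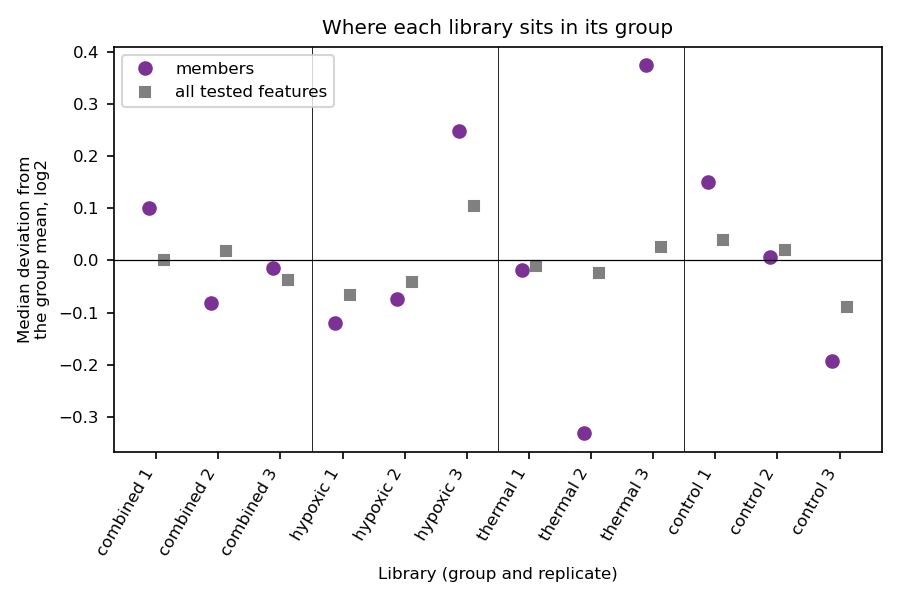
For each library, the median over the 114 members (circles) and over all 46763 tested features (squares) of the deviation from the group mean of log2(FPKM + 0.5). Thermal replicate 2 (-0.33) and thermal replicate 3 (0.37) stand apart for the members, while all tested features stay between -0.09 and 0.10.

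Class and length are not named in the rule, but level is. The members' median highest group mean was 10.9 FPKM, beside 7.83 FPKM for the 32739 tested features with a group mean of at least 2 FPKM. AJAP features made up 72.8% of the members, beside 57.5% of that set. How far level accounts for the AJAP share was not tested. AJAP members had a median length of 1077 bases, with the middle 50% between 688.5 and 1521. The median was 984 bases (618 to 1542) for the AJAP features of that set. MSTRG members had a median length of 1013 bases, beside 1093, and included both the shortest member and the longest, MSTRG.36476 with 6074 bases. MSTRG.36476 had 15.3, 10.2 and 14.2 FPKM in the combined libraries and 13.8, 14.0 and 14.4 FPKM in the hypoxic libraries, against 37.9, 15.9 and 36.3 FPKM in the thermal libraries and 38.8, 49.7 and 31.8 FPKM in the control libraries. Its hypoxic values were almost identical, and thermal replicate 2 again lay close to them. The 2 classes differed little in the low-oxygen difference, with medians of -1.44 for AJAP and -1.61 for MSTRG members. They differed more in level, with medians of 10.6 FPKM for AJAP and 6.17 FPKM for MSTRG members over the thermal and control libraries. Lengths and classes are descriptions, with no test.

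The rule was also applied with its directions turned round and with heat in place of low oxygen. The rule itself found 114 features. Turned round, it found 98 features raised in low oxygen at either temperature. With heat in its place it found 104 features lowered and 98 raised at either oxygen level. The number lowered in low oxygen was thus close to the numbers for the other directions and for heat.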

How the data were processed

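Ribosome-depleted RNA of 12 respiratory tree libraries was analysed from 1 table of FPKM values deposited by the authors, with 1 column per library. DESeq 1.16, Cufflinks, TopHat2 2.0.12 and Bowtie2 2.2.3 are named in the submitters' processing notes. What each tool did, the build and annotation, and any counting by strand were not given in the sources used here. Reads of overlapping, antisense or near-identical features may therefore be split between them. Per the labels' protocols, libraries mark strand and ribosomal RNA was removed with a kit made for human, mouse and rat.

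FPKM divides whole reads by feature length and library total. Ratios between the totals came from the commonest FPKM ratios between libraries. Their scale was the one that gave whole-number lengths over a sample of features, and whole reads were then checked in every row. All 59494 features came out whole within 0.001 reads, 52959 of them with reads in 4 or more libraries. Features with reads in fewer libraries are a weak check, since some length can easily make their values whole. Of 500 features with reads in 4 or more libraries, 0% came out whole under wrong totals. Limma 3.58.1 (R 4.3.3) was fitted to log2(FPKM + 0.5) of the 46763 features that reached 0.5 FPKM in 3 or more libraries, with 1 mean per group, trended variance and Benjamini-Hochberg adjustment, and voom to the recovered reads. Differences on this scale understate the change of features with low values. Other computation used Python 3.11.15, numpy 2.4.6, pandas 2.3.3 and matplotlib 3.10.9. Recovery, fit and rule were tested on simulated data.

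Members and lists were chosen with earlier results of these data known. Named members were the 8 most abundant, the 8 with the largest low-oxygen difference, the 5 with the widest gap, 4 at each end of combined minus hypoxic, 4 at each end of within-group spread, the longest, the shortest and those nearest to each limit. Alternatives were other pseudocounts, filters, scalings and limits, a block for replicate number, and leaving out each library.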

Additional observations from a re-analysis of the deposited data

How the results depend on the processing

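The rule was met by 121 and 109 features with pseudocounts of 0.1 and 1 (111 and 104 of them members), 95 with median-of-ratios scaling (89), 91 with quantile scaling (84), 90 with a level limit of 5 FPKM and 53 with a fold limit of 1.5 on the log2 scale. Leaving out single libraries gave 129 to 262, since fewer libraries make separation easier. For heat added to low oxygen the 16 features called became 3 without a filter, 8 with a filter at 2 FPKM, 3 with quantile scaling, 1 with voom, 4 in a fit of the combined and hypoxic libraries alone, and 1 to 44 without single libraries. Members called there numbered 0 under all of these, with smallest adjusted p-values from 0.0737 to 0.283. For low oxygen averaged over temperature the 413 became 274 without a filter and 84 to 724 without single libraries. The causes were not tested. Of 612 alternative values of the 36 named members' low-oxygen difference 607 moved by less than 1 SD, 5 moved further with a pseudocount of 0.1, and 0 changed sign. Combined minus hypoxic kept its sign in all 168 alternatives of the 8 members named for it.

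Replicate numbers are shared by the groups, but the 18 same-numbered pairs of libraries had correlations of deviations between -0.0799 and 0.0863. A library correlated best with its own number in 13 of 36 cases. These values detected no pairing by number but cannot show that there is none. With the replicate block 7 features were called for heat added to low oxygen, 268 for low oxygen averaged over temperature, and 0 and 43 of the members.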

Other observations

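A few members had 1 thermal library far above the other thermal libraries. They were looked for after the members had been plotted. In MSTRG.55229, AJAP07304 and MSTRG.41053, thermal replicate 1 was at least 3 times the next thermal library, by factors of 6.10, 6.13 and 6.09. MSTRG.55229 had 0.988, 1.00 and 0.516 FPKM in the combined libraries and 0.659, 0.313 and 1.15 FPKM in the hypoxic libraries, against 34.3, 2.00 and 5.63 FPKM in the thermal libraries and 3.13, 6.10 and 3.97 FPKM in the control libraries. AJAP07304 had 1.54, 1.58 and 1.70 FPKM in the combined libraries and 1.58, 0.632 and 2.20 FPKM in the hypoxic libraries, against 32.5, 3.98 and 5.31 FPKM in the thermal libraries and 4.50, 8.46 and 5.69 FPKM in the control libraries. These 2 members kept the same order of libraries within the hypoxic, thermal and control groups but not within the combined group. In the hypoxic group replicate 3 was highest and replicate 2 lowest. In the thermal group replicate 1 was highest and replicate 2 lowest. In the control group replicate 2 was highest and replicate 1 lowest. In the combined group replicate 3 was lowest in MSTRG.55229 and highest in AJAP07304. MSTRG.41053 shared the high thermal replicate 1, at 14.2, 2.34 and 2.01 FPKM in the thermal libraries, but had its highest control value in replicate 1, at 8.33, 1.53 and 3.28 FPKM in the control libraries. Whether any of these features overlap in the genome was not examined.

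Of the other thermal and control libraries, thermal replicate 3 was at 3 or more times the next of its group at 1 member. Control replicate 1 was so at 5 members, control replicate 3 at 3, and thermal replicate 2 and control replicate 2 at 0. The combined and hypoxic libraries were not counted. Such libraries occurred there too, as in combined replicate 2 of AJAP03729, at 1.47 FPKM beside 0.0427 and 0.165 FPKM. How often this occurred over all features tested was not counted either, so nothing is read from these counts.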
